A study of Mus musculus with 40 samples.

Results

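The libraries described here are 4 from cultured mouse mast cells exposed to 4 mM glutamate for 6 h and 4 from the same kind of cells with vehicle for 6 h, 8 of the 40 RNA sequencing libraries of a study on sensory neurons, glutamate and mast cells. They were taken by their labels alone and are compared across all genes in the deposited table. All 8 came from C57BL/6J mast cells grown from the peritoneal cavity, and both groups sat in Tyrode's buffer without glutamate, a simple salt solution, to which vehicle or glutamate was added. A further 8 libraries of the same kind of cell, 4 with 50 uM NS102 for 48 h and 4 with vehicle for 48 h, are used only to ask where the glutamate response differed. The labels do not say whether replicates were separate cultures or animals, so p-values measure only the spread between these libraries. They name no sort, genotype change or purity for the cultured cells.

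Mast cells are tissue-resident immune cells that store histamine, serotonin, heparin and proteases in granules and release them when antigen crosslinks IgE on the FcεRI receptor or when other receptors, such as Mrgprb2, are engaged. Survival depends on stem cell factor acting on Kit and on cytokines such as IL-3. Glutamate is a neurotransmitter that acts on ionotropic (AMPA, kainate, NMDA) and metabotropic receptors, and it is also an amino acid that cells import and use. When amino acid supply or protein folding is disturbed, the transcription factor ATF4 switches on amino acid synthesis and transport, tRNA charging and feedback regulators such as Trib3.

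The cultured cells carried a mast cell transcriptome. Members of a mast cell marker list summed to 74052 to 76802 FPKM in vehicle and 100133 to 102080.00 FPKM in glutamate libraries, where FPKM is a fragment count scaled to transcript length and to the fragments mapped in the library. Total FPKM over all genes ran from 378212 to 389859 in vehicle and from 429502 to 432984 in glutamate libraries, and between 8300 and 8492 genes reached 1 FPKM in vehicle against 7447 to 7675 in glutamate. Libraries of the same group correlated at 0.994 to 0.997 (Pearson, across tested genes on the log2 scale, which are not independent replicates), and libraries of different groups at 0.951 to 0.958. Summed markers of other cell types ranged widely, and some are shared with mast cells. From the macrophage list Emr1, Cd68, Lyz2, C1qb, C1qc, Cd14, Icam2 and Apoe reached 1 FPKM in at least 1 library. From the basophil list Mcpt8, Prss34, Cd200r3, Gzmb and Itga2b did. Whether other cells were present was not tested. The macrophage list summed to 254 to 318 FPKM in vehicle and 205 to 233 FPKM in glutamate libraries, the fibroblast list to 0.241 to 0.647 FPKM in vehicle and 0.309 to 1.21 FPKM in glutamate libraries, and the neutrophil list to 0.00446 to 0.0533 FPKM in vehicle and 0 to 0.261 FPKM in glutamate libraries, with Mpo, Elane, Camp, Ngp and Retnlg at 0 in all 8 libraries. The eosinophil list summed to 3.25 to 3.72 FPKM in vehicle and 1.1 to 1.63 FPKM in glutamate libraries, with Epx and Prg3 at 0 throughout. The basophil list summed to 1324 to 1369.7 FPKM in vehicle and 1511 to 1557 FPKM in glutamate libraries, carried by genes such as Prss34 and Gzmb, and the platelet list to 217 to 250.4 FPKM in vehicle and 209 to 238 FPKM in glutamate libraries. The B cell list summed to 2.25 to 2.92 FPKM in vehicle and 1.24 to 1.43 FPKM in glutamate libraries, the T and NK cell list to 12.1 to 13.5 FPKM in vehicle and 9.5 to 11.1 FPKM in glutamate libraries, the antigen presentation list to 38.3 to 42.4 FPKM in vehicle and 44.2 to 48.9 FPKM in glutamate libraries, the mesothelial list to 27.8 to 30 FPKM in vehicle and 36.7 to 38.2 FPKM in glutamate libraries, the red blood cell list to 1.08 to 1.63 FPKM in vehicle and 1.54 to 2.7 FPKM in glutamate libraries and the keratinocyte list to 0.329 to 0.788 FPKM in vehicle and 0.568 to 1.31 FPKM in glutamate libraries. In bulk RNA, fewer cells of a type and less RNA per cell cannot be told apart.

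The glutamate libraries differed from vehicle across most of the transcriptome. Among the 8297 genes that reached 1 FPKM in 4 or more of these 8 libraries, 6580 (79.3%) passed limma's moderated test at an adjusted p under 0.05 on log2(FPKM + 1), 1403 (16.9%) higher and 5177 (62.4%) lower with glutamate. The median gene changed by -0.33 on the log2(FPKM + 1) scale, a ratio of 0.797 in FPKM + 1 and not in FPKM itself. The shift differed with expression level but did not follow it in order. Genes were grouped by their vehicle level, which is itself part of the change. The pseudocount and the filter also act most on the lowest group, and their share in this pattern was not tested. The 1273 genes under 2 FPKM in vehicle had a median change of -0.21, with 19.6% called higher, and the 2126 genes between 2 and 5 FPKM one of -0.38, with 11.3% higher. It was lowest, at -0.42 with 13.0% higher, in the 2822 genes between 5 and 20 FPKM. The median change was -0.27 in the 1589 genes between 20 and 100 FPKM (20.5% higher), 0.028 in the 445 between 100 and 1000 FPKM (42.9% higher) and 0.26 in the 42 at 1000 FPKM or more (76.2% higher). The 10 most abundant genes, led by the tryptase Tpsb2, held 27.2% to 27.5% of all FPKM in vehicle and 34.4% to 34.7% in glutamate libraries. The FPKM of all genes outside these 10 summed to 274982 to 282626 in vehicle and 280849 to 283142 in glutamate libraries, ranges that overlap.

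**Figure D1:**
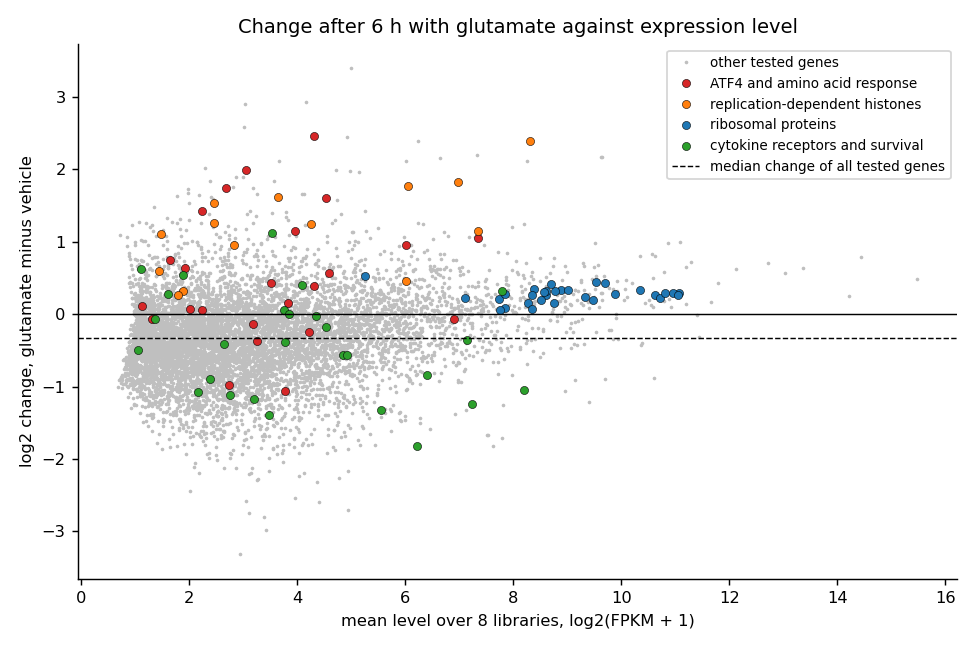
Each point is a tested gene, with its mean level over the 8 libraries on the x axis (log2 of FPKM + 1) and its log2 change with glutamate on the y axis; coloured points are members of 4 gene lists and the dashed line is the median change of -0.33. Amino acid response genes and histones lie mostly above 0, ribosomal proteins sit in a narrow band above 0 at high levels, and cytokine receptors lie mostly below 0.

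Because most genes shifted the same way, each change is given as deposited and relative to the median. After each library was centred on its own median, 6314 genes (76.1%) passed, 3703 (44.6%) higher and 2611 (31.5%) lower. The mean library median fell by 0.41 between groups, more than the median change of single genes. Centring on the median gene-wise change instead, a setting chosen after seeing the data, gave 3126 higher and 3116 lower. In what follows, a gene rose or fell only if it passed the test in the same direction both as deposited and after centring on the library median. By that rule 16.9% of tested genes rose and 31.5% fell. These shares are the background for the counts of risen and fallen genes in every list below. All 1403 genes called higher as deposited were also higher after centring, and all 2611 called lower after centring were also lower as deposited. The rule thus equals the call as deposited for rises and the centred call for falls, and is not a second check. After a list's counts, brackets give how many members were called higher and how many lower after centring alone and under quantile normalization of libraries. They are given since genes called lower as deposited and higher after centring count as neither risen nor fallen. The background of the bracketed counts is 44.6% higher and 31.5% lower after centring. Under quantile normalization it is 3112 higher and 3101 lower of the 8297 tested genes. Another 673 genes (8.11%) were called lower as deposited but higher after centring, so their direction depends on the scaling. A change of at least 1 log2 unit beyond the median, with both calls, was found for 309 genes upward (3.72%) and 313 downward (3.77%). The FPKM of the 2 groups did not overlap for 74.3% of genes, 15.2% with glutamate higher and 59.1% with glutamate lower. The filter kept 57 genes with all vehicle libraries under 1 FPKM and 522 with all glutamate libraries under 1 FPKM, which had to differ to be kept, so counts within lists are descriptions.

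**Figure D2:**
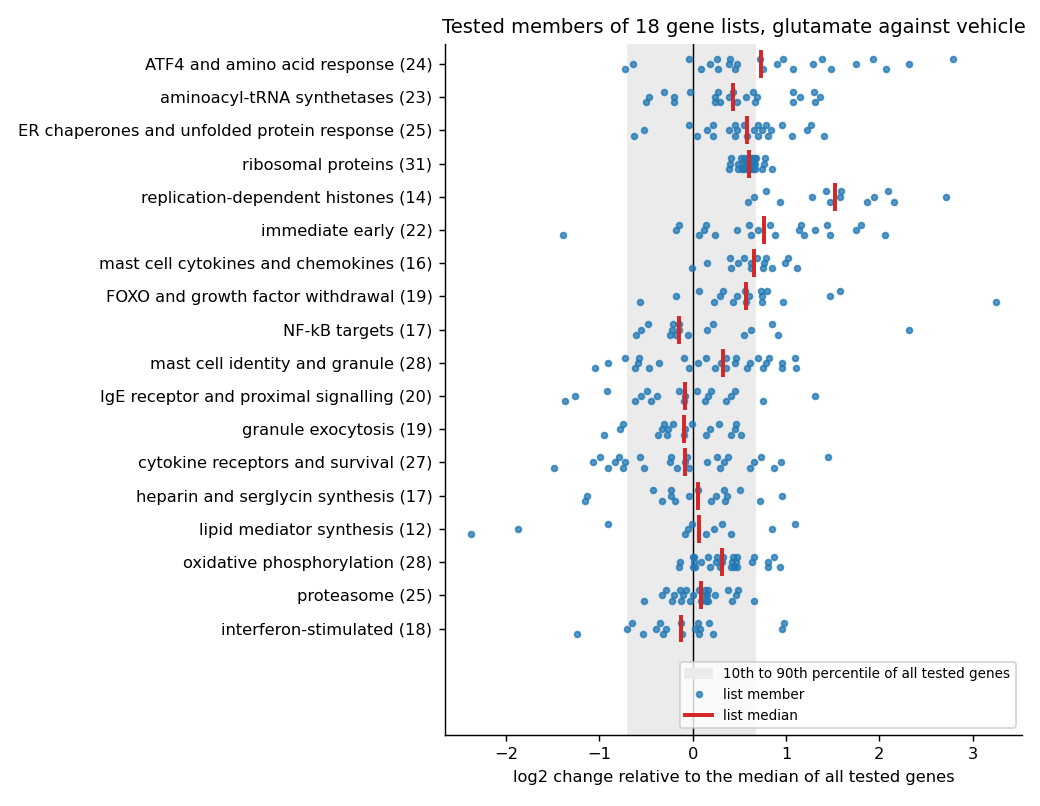
Each row is a gene list with its number of tested members in brackets, each point a member's log2 change relative to the median of all tested genes, each red bar the list median, and the grey band the 10th to 90th percentile of all tested genes (-0.69 to 0.67). Histone, immediate early and ATF4 lists have medians above the band, and the cytokine receptor list is centred near 0 with members on both sides.

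Genes of the ATF4 and amino acid response were among the clearest rises. Of 36 genes on the list, 24 were tested, 14 rose and 2 fell (21 and 2 centred, 19 and 2 quantile), and the median member stood 0.74 above the median of all genes (0.41 as deposited). Asns (chr6:7625170-7643182 in the deposited table, build mm9), which makes asparagine from aspartate using glutamine as nitrogen donor, measured 5.28, 4.92, 5.26 and 5.01 in the vehicle libraries and 31.9, 32.7, 35.7 and 30.7 in the glutamate libraries (FPKM, as for every gene below). The groups were far apart, a 6.4-fold rise of the mean with a log2 change of 2.46 ± 0.06 (SE), adjusted p = 1.8e-12, 2.79 relative to the median. Nupr1, a small stress-induced chromatin protein, read 2.34, 1.87, 2.07 and 3.05 in the vehicle libraries and 11.1, 12.1, 15.4 and 10.4 in the glutamate libraries, and its highest vehicle library stayed below its lowest glutamate library (log2 change 1.99 ± 0.12 (SE), adjusted p = 7.3e-09). Trib3, a pseudokinase induced by and restraining ATF4, read 1.68, 1.41, 1.57 and 1.6 in the vehicle libraries and 6.37, 6.33, 4.83 and 6.04 in the glutamate libraries, again without overlap (log2 change 1.42 ± 0.08 (SE), adjusted p = 5.4e-09).

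The promoters of these 3 genes are shown because each holds the letters of an amino acid response composite site, a half-site pattern bound by C/EBP and ATF family dimers, searched as TGATGNAA on either strand (TTNCATCA on the other). The windows run from 250 bases before to 50 after the transcript start (RefSeq, GRCm38.p6), printed 5′ to 3′ in the direction of the gene with the match in capitals. All 3 genes are on the minus strand, Asns at chr6:7693160-7693459, Nupr1 at chr7:126625421-126625720 and Trib3 at chr2:152344011-152344310.
Asns: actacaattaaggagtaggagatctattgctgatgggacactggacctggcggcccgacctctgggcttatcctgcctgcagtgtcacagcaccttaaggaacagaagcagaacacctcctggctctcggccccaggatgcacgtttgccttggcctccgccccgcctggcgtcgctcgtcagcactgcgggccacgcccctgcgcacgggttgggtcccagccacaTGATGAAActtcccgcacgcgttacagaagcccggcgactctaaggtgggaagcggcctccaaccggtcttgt
Nupr1: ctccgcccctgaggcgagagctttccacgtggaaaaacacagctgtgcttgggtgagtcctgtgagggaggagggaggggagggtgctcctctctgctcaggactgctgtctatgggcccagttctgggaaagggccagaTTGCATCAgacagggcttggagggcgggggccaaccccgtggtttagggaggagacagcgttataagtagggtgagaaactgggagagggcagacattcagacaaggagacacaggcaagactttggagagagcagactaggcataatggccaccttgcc
Trib3: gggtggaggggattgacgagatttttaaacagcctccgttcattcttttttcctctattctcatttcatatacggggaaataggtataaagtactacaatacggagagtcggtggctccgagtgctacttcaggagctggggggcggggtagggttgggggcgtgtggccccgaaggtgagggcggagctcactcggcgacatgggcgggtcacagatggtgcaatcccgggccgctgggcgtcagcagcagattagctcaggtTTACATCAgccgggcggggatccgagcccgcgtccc
The match begins 23 bases before the start site in Asns, 110 bases before it in Nupr1 and 14 bases after it in Trib3. Among 19 tested ATF4 list genes found in the RefSeq table, 4 held a match (Asns, Nupr1, Trib3 and Pck2), in 4 of 23 windows. Of all 32851 promoter windows, 3.97% held one, and of the 8068 windows of tested genes 2.16%. A match describes letters and is not evidence of binding.

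The rest of the pathway covered serine and one-carbon synthesis, transport and regulators. Mthfd2, a mitochondrial one-carbon enzyme, rose from 10.4 ± 0.799 to 33.7 ± 1.64 FPKM (means ± SD over the 4 libraries of each group, here and below; log2 change 1.61 ± 0.06 (SE), adjusted p = 8.0e-11). Psat1, an aminotransferase of serine synthesis that consumes glutamate, rose from 8.64 ± 0.477 to 20.4 ± 1.29 FPKM (log2 change 1.15 ± 0.06 (SE), adjusted p = 1.4e-09). Both transporter subunits of the large neutral amino acid exchanger rose. Slc3a2, the heavy chain, went from 105 ± 3.33 to 219 ± 6.25 FPKM (log2 change 1.05 ± 0.03 (SE), adjusted p = 3.6e-11), and Slc7a5, the light chain, from 18.3 ± 0.374 to 27.7 ± 1.91 FPKM (log2 change 0.58 ± 0.05 (SE), adjusted p = 3.0e-07). Eif4ebp1, a translation repressor and ATF4 target, rose with a log2 change of 0.96 ± 0.05 (SE), adjusted p = 2.2e-09. Atf4 itself rose modestly, from 8.75 ± 0.618 to 12.1 ± 0.391 FPKM (log2 change 0.42 ± 0.06 (SE), adjusted p = 1.6e-05). Cebpb was higher on average but erratic, with 0.182, 1.84, 3.47 and 2.26 in the vehicle libraries and 10.3, 14.5, 7.69 and 3.02 in the glutamate libraries and overlapping groups. Cebpb passed the filter only with the help of the glutamate libraries, so no test is given for it.

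Other members of that list did not rise. Ddit3, which encodes the stress factor CHOP, was abundant in both groups at 121, 122, 124 and 117 in the vehicle libraries and 121, 119, 116 and 108 in the glutamate libraries, overlapping, with a log2 change of -0.06 ± 0.04 (SE), adjusted p = 0.17 as deposited and a call of higher after centring. Ppp1r15a, which encodes the phosphatase subunit GADD34 that reverses eIF2α phosphorylation, fell from 17.6 ± 1.32 to 7.93 ± 0.927 FPKM (log2 change -1.06 ± 0.08 (SE), adjusted p = 3.8e-08, -0.73 relative to the median). Slc38a2, an importer of small neutral amino acids that many cells induce when starved of them, fell from 7.79 ± 0.398 to 3.48 ± 0.178 FPKM (log2 change -0.97 ± 0.06 (SE), adjusted p = 1.3e-08). The list therefore split between members far above the median and a pair clearly below it.

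**Figure D3:**
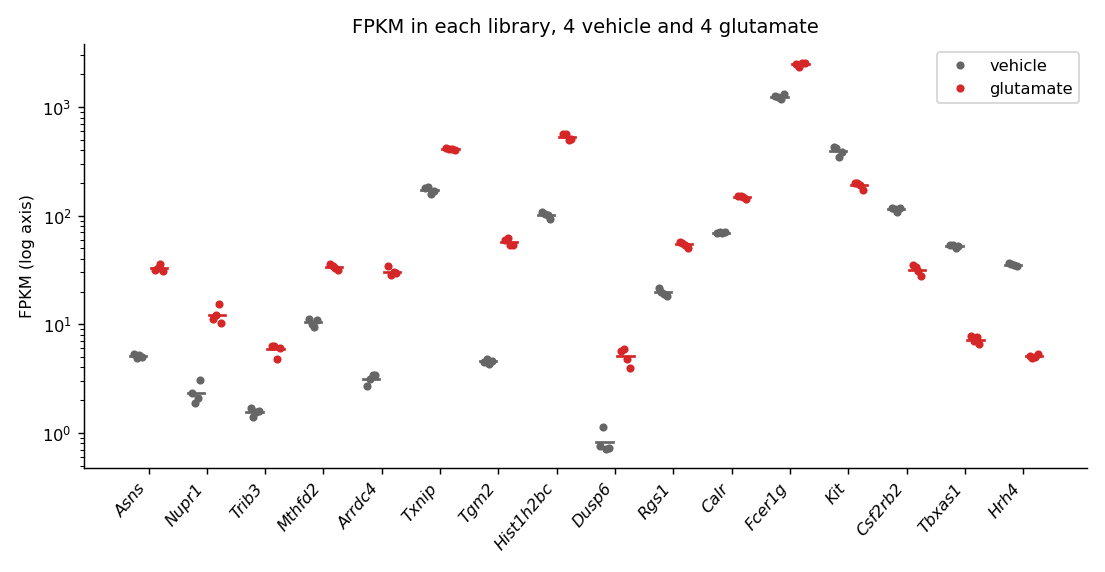
FPKM on a log axis for 16 genes, with 4 vehicle libraries in grey and 4 glutamate libraries in red, each point a library and each bar a group mean. On average Asns rises from 5.12 to 32.7 FPKM and Tbxas1 falls from 52.4 to 7.23.

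Aminoacyl-tRNA synthetases, which charge tRNAs with amino acids, also leaned upward, with 11 of 23 risen, 4 fallen (17 and 4 centred, 17 and 5 quantile) and a median 0.43 above that of all genes. Aars (alanine) read 3.64, 3.4, 2.88 and 3.48 in the vehicle libraries and 8.32, 8.87, 7.73 and 6.85 in the glutamate libraries, with a log2 change of 1.04 ± 0.08 (SE), adjusted p = 1.0e-07. Mars (methionine) and Yars (tyrosine) behaved alike, with log2 changes of 0.98 ± 0.07 (SE), adjusted p = 4.5e-08, and 0.98 ± 0.06 (SE), adjusted p = 1.3e-08. Sars (serine) rose from 14.6 ± 0.408 to 25 ± 1.27 FPKM (log2 change 0.74 ± 0.05 (SE), adjusted p = 1.3e-08). Farsb, a subunit of the phenylalanine enzyme, and Lars (leucine) fell, from 5.59 ± 0.481 to 2.72 ± 0.254 and from 3.48 ± 0.448 to 1.57 ± 0.187 FPKM. The composite letters were present in 5 of 16 windows of this list, those of Aars, Gars, Iars, Tars and Yars.

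Chaperones of the endoplasmic reticulum (ER), where granule and surface proteins fold, included 16 risen and 2 fallen genes of 25 tested (22 and 2 centred, 20 and 3 quantile), with a median of 0.59 relative to all genes. Calr, the calcium-binding lectin chaperone calreticulin, read 68.8, 71.1, 69.1 and 70.6 in the vehicle libraries and 152, 151, 149 and 144 in the glutamate libraries, a 2.13-fold rise with tight replicates (log2 change 1.08 ± 0.03 (SE), adjusted p = 1.8e-11). Sdf2l1, an ER stress-inducible cofactor, rose from 39.5 ± 1.57 to 76.5 ± 4.29 FPKM (log2 change 0.94 ± 0.05 (SE), adjusted p = 1.2e-09), and the disulfide isomerase Pdia6 from 44.8 ± 2.12 to 75.4 ± 3.45 FPKM (log2 change 0.74 ± 0.04 (SE), adjusted p = 7.3e-09). Syvn1 and Sel1l, the ubiquitin ligase and adaptor that clear misfolded ER proteins, were the members that fell. Syvn1 went from 6.14 ± 0.222 to 2.68 ± 0.224 FPKM (log2 change -0.96 ± 0.07 (SE), adjusted p = 2.6e-08) and Sel1l from 10.4 ± 1.05 to 5.33 ± 0.279 FPKM (log2 change -0.85 ± 0.07 (SE), adjusted p = 1.6e-07).

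Genes that sense or handle glutamate itself gave a mixed picture. Of 26 glutamate receptor genes, 1 passed the filter. This was Grin2c, an NMDA receptor subunit, at 2.77, 3.12, 2.94 and 3.09 in the vehicle libraries and 2.63, 2.44, 2.24 and 2.03 in the glutamate libraries, lower as deposited (log2 change -0.26 ± 0.07 (SE), adjusted p = 0.0059) but 0.07 relative to the median change. It was called higher after centring on the library median, which fell by more than the median gene-wise change. After centring on the gene-wise change, Grin2c was called neither higher nor lower. Grik2, the kainate subunit GluK2, stayed under the filter and was not tested. It read 0.225, 0.307, 0.295 and 0.279 in the vehicle libraries and 0.466, 0.539, 0.57 and 0.454 in the glutamate libraries, so every glutamate library lay above every vehicle library, but at levels below 1 FPKM. Of 21 tested glutamate and glutamine transport and enzyme genes, 6 rose and 2 fell (13 and 2 centred, 11 and 3 quantile, 1 under 1 FPKM throughout 1 group), with a median 0.12 relative to all genes. Those that rose overlap the amino acid response in part, since Asns and Psat1 stand on both lists. Slc1a4, a neutral amino acid transporter, read 0.139, 0.233, 0.183 and 0.116 in the vehicle libraries and 1.43, 1.66, 1.23 and 1.43 in the glutamate libraries, passing the filter through the glutamate libraries alone. Aldh18a1, which converts glutamate toward proline, rose from 9.36 ± 1.1 to 18.1 ± 0.841 FPKM (log2 change 0.89 ± 0.07 (SE), adjusted p = 1.4e-07). Got1, the cytosolic aspartate aminotransferase, rose with a log2 change of 0.58 ± 0.07 (SE), adjusted p = 3.1e-06. Glul, glutamine synthetase, which joins glutamate and ammonia, rose least, from 79.7 ± 2.95 to 92.8 ± 2.24 FPKM (log2 change 0.22 ± 0.04 (SE), adjusted p = 9.9e-05).

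Ribosomal protein genes lay within a narrow range. All 31 on the list were tested, 28 rose and 0 fell, and relative changes ran from 0.39 to 0.85, but quantile normalization left 15 higher and 5 lower, so their direction depends on the scaling. Rplp0, a protein of the ribosomal stalk, read 602, 606, 667 and 643 in the vehicle libraries and 839.99, 848, 862 and 878 in the glutamate libraries (log2 change 0.45 ± 0.04 (SE), adjusted p = 1.0e-07). Rps2 rose from 704 ± 33.3 to 949 ± 22.5 FPKM (log2 change 0.43 ± 0.04 (SE), adjusted p = 1.4e-07). Rpl37 was a member that did not pass, at 213, 195, 228 and 206 in the vehicle libraries and 209.9, 211, 214 and 243 in the glutamate libraries, overlapping (log2 change 0.06 ± 0.05 (SE), adjusted p = 0.31). Many ribosomal protein genes have processed pseudogenes, and reads could be split among them.

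Translation and growth genes outside the ribosome went both ways. Eif4e, the cap-binding factor, rose from 7.28 ± 0.548 to 19.3 ± 0.558 FPKM (log2 change 1.29 ± 0.06 (SE), adjusted p = 4.1e-10), while Eif5, which triggers start codon recognition, fell from 28.9 ± 1.09 to 7.62 ± 0.294 FPKM (log2 change -1.8 ± 0.05 (SE), adjusted p = 9.3e-12). Odc1 and Srm, consecutive enzymes of polyamine synthesis and known MYC targets, both rose. Odc1 read 6.2, 7.72, 6.5 and 6.02 in the vehicle libraries and 19.4, 19.9, 18.9 and 18.2 in the glutamate libraries (log2 change 1.41 ± 0.07 (SE), adjusted p = 1.0e-09). Srm went from 3.68 ± 0.662 to 11.2 ± 0.392 FPKM (log2 change 1.39 ± 0.09 (SE), adjusted p = 1.1e-08). Across the ribosome biogenesis and MYC target list, 6 of 21 tested genes rose and 1 fell (19 and 1 centred, 18 and 2 quantile).

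Histone genes of the replication-dependent clusters gave the highest list median. Of 14 tested, 12 rose, 0 fell (14 and 0 centred, 14 and 0 quantile), and the median stood 1.53 above that of all genes. Hist1h2bc (H2B) read 108, 103, 101 and 93.9 in the vehicle libraries and 565, 564, 499.99 and 509 in the glutamate libraries, a 5.27-fold rise with no overlap (log2 change 2.38 ± 0.05 (SE), adjusted p = 1.3e-12). Hist1h1c (linker H1) rose from 54.1 ± 5.85 to 195 ± 15.7 FPKM (log2 change 1.83 ± 0.07 (SE), adjusted p = 1.8e-10). Beyond the list, the largest rises in the table included Hist1h2bg, Hist1h2ad, Hist1h2ah, Hist1h2an, Hist1h2bl and Hist1h2ap, with log2 changes from 2.11 to 2.44. Hist1h2ap was the least even, at 7.86, 3.37, 18.1 and 8.28 in the vehicle libraries and 53.3, 56.7, 49.7 and 36.5 in the glutamate libraries. The H2A genes among these are close copies of each other, as are the H2B genes. The split of reads within each type is therefore uncertain, and each type should be counted as a family. Among cell cycle genes, of 23 DNA replication genes 1 rose and 5 fell (12 and 5 centred, 11 and 5 quantile), the riser being Rrm2, a ribonucleotide reductase subunit, from 9.15 ± 0.53 to 20.4 ± 0.594 FPKM (log2 change 1.08 ± 0.05 (SE), adjusted p = 9.4e-10). Of 19 mitosis genes 8 rose and 3 fell (12 and 3 centred, 12 and 3 quantile, 1 under 1 FPKM throughout 1 group).

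The alpha-arrestins Arrdc4 and Txnip, which restrain glucose uptake and are transcribed through the glucose-sensing factors MondoA and ChREBP, both rose. Arrdc4 (chr7:75881879-75894124, mm9) read 2.68, 3.15, 3.4 and 3.4 in the vehicle libraries and 34.3, 28.4, 30 and 29.5 in the glutamate libraries, a 9.67-fold rise (log2 change 2.92 ± 0.07 (SE), adjusted p = 5.3e-12, 3.25 relative to the median). Txnip read 180.2, 183, 159 and 168 in the vehicle libraries and 416, 412, 411 and 405 in the glutamate libraries, starting far higher and without overlap (log2 change 1.25 ± 0.04 (SE), adjusted p = 4.1e-11). Both stand on the list of FOXO targets and growth factor withdrawal, where 11 of 19 tested genes rose and 1 fell (17 and 1 centred, 15 and 3 quantile, 1 under 1 FPKM throughout 1 group). Per1, a clock gene on that list, read 0.555, 0.65, 0.536 and 0.514 in the vehicle libraries and 3.08, 2.57, 2.3 and 1.97 in the glutamate libraries, and because it passed the filter through the glutamate libraries alone no test is given for it. Both arrestins also stand on the hypoxia and glucose sensing list, where 5 of 16 tested genes rose and 3 fell (12 and 3 centred, 11 and 3 quantile). The glucose-sensing factors bind pairs of E-boxes, and the promoters are shown for the letters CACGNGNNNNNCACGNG in Txnip (chr3:96557707-96558006, plus strand) and the single E-box CACGTG in Arrdc4 (chr7:68749189-68749488, minus strand), both GRCm38.p6.
Txnip: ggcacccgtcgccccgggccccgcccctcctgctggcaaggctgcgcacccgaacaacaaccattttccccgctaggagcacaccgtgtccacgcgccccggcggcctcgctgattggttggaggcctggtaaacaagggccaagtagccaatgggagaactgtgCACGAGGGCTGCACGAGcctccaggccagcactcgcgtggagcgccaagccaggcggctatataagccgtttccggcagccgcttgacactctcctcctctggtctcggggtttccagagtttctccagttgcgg
Arrdc4: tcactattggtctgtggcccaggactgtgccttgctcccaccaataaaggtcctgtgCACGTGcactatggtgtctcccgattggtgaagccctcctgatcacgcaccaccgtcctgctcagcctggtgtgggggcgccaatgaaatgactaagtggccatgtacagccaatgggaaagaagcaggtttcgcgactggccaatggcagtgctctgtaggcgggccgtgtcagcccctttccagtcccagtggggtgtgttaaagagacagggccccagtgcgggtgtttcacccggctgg
The pair begins 85 bases before the start of Txnip, and 16 of all 32851 windows (0.0487%) hold such letters on either strand, as do 0.0992% of the 8068 windows of tested genes. The single E-box begins 193 bases before the start of Arrdc4, and 7.15% of all windows and 10.5% of those of tested genes hold one.

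The largest rise on the log2(FPKM + 1) scale was outside these lists. It was that of Tgm2 (chr2:157942140-157972128, mm9), the transglutaminase that crosslinks proteins at glutamine residues, which read 4.53, 4.76, 4.34 and 4.58 in the vehicle libraries and 60.1, 61.6, 54.1 and 54 in the glutamate libraries, a 12.6-fold rise (log2 change 3.4 ± 0.06 (SE), adjusted p = 3.8e-13, 3.72 relative to the median). Aqp8, a water and peroxide channel, read 0.854, 0.984, 0.81 and 1.13 in the vehicle libraries and 13.5, 13.3, 15.1 and 12.3 in the glutamate libraries, from a vehicle level near 1 FPKM. The ratio of its means was larger (14.3-fold) and its log2 change smaller (2.9). It needed the glutamate libraries to pass the filter, so no test is given for it.

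Immediate early and feedback genes, which respond to kinase signalling within minutes to hours, included 14 risen and 1 fallen of 22 tested (17 and 1 centred, 17 and 2 quantile, 1 under 1 FPKM throughout 1 group), with a median 0.76 above all genes. Dusp6, a phosphatase that switches off ERK, read 0.757, 1.14, 0.71 and 0.723 in the vehicle libraries and 5.71, 5.93, 4.79 and 3.95 in the glutamate libraries. It needed the glutamate libraries to pass the filter, so no test is given for it. Rgs1, a brake on G protein signalling, read 21.7, 20, 18.8 and 18 in the vehicle libraries and 57.5, 55.8, 53.9 and 50.3 in the glutamate libraries (log2 change 1.42 ± 0.06 (SE), adjusted p = 2.4e-10). In both genes every glutamate library exceeded every vehicle library. Dusp1, a phosphatase of p38 and JNK, had a log2 change of 1.11 ± 0.09 (SE), adjusted p = 1.3e-07, and the AP-1 subunit Junb of 0.86 ± 0.04 (SE), adjusted p = 3.7e-10. The member that fell was Ier3, a survival-linked early gene, from 340.3 ± 13.1 to 103 ± 1.39 FPKM (log2 change -1.72 ± 0.03 (SE), adjusted p = 1.1e-12).

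NF-κB targets went both ways. Of 17 tested, 5 rose and 4 fell (6 and 4 centred, 6 and 6 quantile). Gadd45b, a stress sensor, read 11.1, 9.61, 9.33 and 8.46 in the vehicle libraries and 42.8, 44.2, 37.6 and 40.5 in the glutamate libraries (log2 change 1.99 ± 0.07 (SE), adjusted p = 9.2e-11), and Nfkbia, the inhibitor IκBα, rose from 26 ± 1.4 to 39.5 ± 0.811 FPKM (log2 change 0.59 ± 0.04 (SE), adjusted p = 5.4e-08). Nfkb1, the p105 subunit, fell from 19.2 ± 1.61 to 10.5 ± 0.913 FPKM (log2 change -0.81 ± 0.07 (SE), adjusted p = 2.1e-07). Of 16 tested cytokines and chemokines, 11 rose and 0 fell (14 and 0 centred, 14 and 0 quantile). The increases were small in fold. Ccl2, a monocyte attractant, read 587, 601, 623 and 616 in the vehicle libraries and 838, 867, 893 and 887 in the glutamate libraries (log2 change 0.52 ± 0.03 (SE), adjusted p = 6.3e-09). Ccl3 had a log2 change of 0.69 ± 0.07 (SE), adjusted p = 7.4e-07, Ccl7 of 0.36 ± 0.04 (SE), adjusted p = 9.9e-07, and Il6 of 0.22 ± 0.06 (SE), adjusted p = 0.0044.

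Granule and identity genes of the mast cell went in both directions. Of 28 tested, 11 rose and 8 fell, whereas centring alone gave 18 higher and 8 lower and quantile normalization 10 higher and 15 lower. The abundant proteases and the granule proteoglycan were higher as deposited and after centring, but under quantile normalization Cpa3, Tpsb2 and Srgn changed by 0, which an unchanged rank in every library fixes, and Cma1 was lower (-0.26). Cpa3, carboxypeptidase A3, read 8489, 8298, 8033 and 8265 in the vehicle libraries and 13217, 13193, 12767 and 12170.3 in the glutamate libraries (log2 change 0.63 ± 0.03 (SE), adjusted p = 2.7e-09). Tpsb2, a tryptase, had a log2 change of 0.49 ± 0.04 (SE), adjusted p = 4.7e-08, while its close relative Tpsab1 fell (-0.69 ± 0.03 (SE), adjusted p = 4.2e-10), and how reads were divided between them is uncertain. The chymases Cma1 and Mcpt4, also close relatives, had log2 changes of 0.25 ± 0.03 (SE), adjusted p = 1.2e-05, and 0.46 ± 0.04 (SE), adjusted p = 8.4e-08. Srgn, serglycin, the core protein that carries heparin, had a log2 change of 0.63 ± 0.03 (SE), adjusted p = 2.8e-09. Among enzymes and transporters of amines, Hdc, which makes histamine, rose from 264 ± 13.5 to 454 ± 24.6 FPKM (log2 change 0.78 ± 0.05 (SE), adjusted p = 4.7e-09), while Slc18a2, which loads histamine and serotonin into granules, fell from 173 ± 9.41 to 66.1 ± 3.18 FPKM (log2 change -1.37 ± 0.05 (SE), adjusted p = 4.3e-11). Mrgprb2, the receptor for cationic secretagogues, read 86.9, 87.9, 86.6 and 89 in the vehicle libraries and 44.8, 44.6, 50.7 and 45.4 in the glutamate libraries and fell without overlap (log2 change -0.91 ± 0.04 (SE), adjusted p = 8.0e-10). Lysosomal genes included 7 risen and 6 fallen of 27 (18 and 6 centred, 14 and 8 quantile). Ctsd, cathepsin D, rose from 1087 ± 53 to 1935 ± 41.9 FPKM (log2 change 0.83 ± 0.04 (SE), adjusted p = 3.7e-10), and Lamp1, a lysosomal membrane protein, from 94.3 ± 17.5 to 196 ± 11.7 FPKM (log2 change 1.06 ± 0.11 (SE), adjusted p = 1.1e-06).

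The 3 chains of the IgE receptor parted. Fcer1g, the signalling γ chain, read 1263, 1229, 1179 and 1308 in the vehicle libraries and 2482, 2347, 2514 and 2526 in the glutamate libraries, a 1.98-fold rise (log2 change 0.99 ± 0.04 (SE), adjusted p = 1.1e-10). Fcer1a, the IgE-binding α chain, rose less, from 3023 ± 105 to 4064 ± 63.5 FPKM (log2 change 0.43 ± 0.03 (SE), adjusted p = 4.2e-08). Ms4a2, the amplifying β chain, read 169.9, 171, 156 and 162 in the vehicle libraries and 84.7, 86.9, 88.4 and 80.8 in the glutamate libraries and fell (log2 change -0.94 ± 0.04 (SE), adjusted p = 3.7e-10). Over the whole IgE signalling list, receptor chains included, 2 of 20 tested genes rose, Fcer1a and Fcer1g, and 8 fell (8 and 8 centred, 7 and 11 quantile), with a median -0.09 relative to all genes. The kinases Lyn, Syk and Btk fell. Syk read 4.49, 4.26, 3.85 and 4.14 in the vehicle libraries and 1.19, 1.4, 1.1 and 1.06 in the glutamate libraries, at the low end of the measured range (log2 change -1.25 ± 0.07 (SE), adjusted p = 5.1e-09). Btk went from 28.9 ± 2.53 to 8.89 ± 0.358 FPKM (log2 change -1.59 ± 0.06 (SE), adjusted p = 1.4e-10) and Lyn from 29 ± 2.62 to 16 ± 1.53 FPKM (log2 change -0.82 ± 0.07 (SE), adjusted p = 2.9e-07). Inpp5d, the phosphatase SHIP1 that restrains degranulation, fell from 42.1 ± 4.3 to 12.3 ± 1.15 FPKM (log2 change -1.69 ± 0.08 (SE), adjusted p = 5.1e-10). Lyn, Syk, Btk and Inpp5d, elements of both signs, were lower, but they are picked members of the list. Over the list 8 of 20 fell, beside 31.5% of all tested genes. Of 19 granule exocytosis genes, 3 rose and 7 fell (7 and 7 centred, 7 and 11 quantile).

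Receptors for growth factors and cytokines included several of the falls in abundant surface proteins. Of 27 tested genes of that list, 6 rose and 12 fell (10 and 12 centred, 10 and 13 quantile, 1 under 1 FPKM throughout 1 group). Kit (chr5:75971011-76052746, mm9), the stem cell factor receptor, read 428, 419.8, 349 and 389 in the vehicle libraries and 200.04, 199.5, 191 and 172 in the glutamate libraries (fold 0.48, log2 change -1.05 ± 0.06 (SE), adjusted p = 6.4e-09, -0.72 relative to the median). Csf2rb2, the IL-3 receptor β chain, read 118, 115, 108 and 117 in the vehicle libraries and 35.1, 33.5, 30.8 and 27.8 in the glutamate libraries (log2 change -1.82 ± 0.06 (SE), adjusted p = 4.6e-11), and its close relative Csf2rb, the common β chain, fell from 210.4 ± 18.9 to 88.8 ± 7.2 FPKM (log2 change -1.23 ± 0.07 (SE), adjusted p = 2.3e-09). The groups did not overlap for Kit or for either β chain, and reads may be shared between the β chains. Il4ra, the IL-4 and IL-13 receptor chain, fell from 66.1 ± 3.36 to 25.8 ± 0.942 FPKM (log2 change -1.32 ± 0.05 (SE), adjusted p = 4.8e-11). Il1rl1, the IL-33 receptor ST2, was lower as deposited (log2 change -0.36 ± 0.05 (SE), adjusted p = 1.1e-05) but stood at -0.03 relative to the median and was not called after centring.

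Lipid mediator enzymes ranged widely, from -2.37 to 1.10 relative to the median, with 3 risen and 3 fallen of 12 (6 and 3 centred, 3 and 6 quantile). Tbxas1 (chr6:38868984-39034578, mm9), thromboxane synthase, read 53.3, 53.9, 50.4 and 52.1 in the vehicle libraries and 7.72, 7.02, 7.62 and 6.56 in the glutamate libraries (log2 change -2.7 ± 0.05 (SE), adjusted p = 1.1e-12). Lpcat2, which makes platelet-activating factor, fell from 27.6 ± 0.612 to 5.24 ± 0.642 FPKM (log2 change -2.2 ± 0.07 (SE), adjusted p = 2.4e-11). Hpgds, the prostaglandin D2 synthase of mast cells, read 6.91, 5.86, 5.53 and 5.55 in the vehicle libraries and 2.02, 1.73, 1.98 and 2.03 in the glutamate libraries (log2 change -1.24 ± 0.08 (SE), adjusted p = 9.2e-09). Upstream of Tbxas1 and Hpgds, Ptgs1, cyclooxygenase 1, went the other way, from 54.1 ± 0.865 to 92.8 ± 3.93 FPKM (log2 change 0.77 ± 0.04 (SE), adjusted p = 1.1e-09). Heparin synthesis genes included 3 risen and 5 fallen of 17 (8 and 5 centred, 6 and 6 quantile). Ndst2, the sulfotransferase that mast cell heparin requires, fell from 92.5 ± 5.48 to 33 ± 1.85 FPKM (log2 change -1.46 ± 0.05 (SE), adjusted p = 6.3e-11). Papss2, which makes the sulfate donor, fell from 38.8 ± 3.07 to 13.3 ± 0.905 FPKM (log2 change -1.48 ± 0.06 (SE), adjusted p = 3.1e-10).

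Among genes with at least 5 FPKM in vehicle, those that fell furthest had varied roles. Acsbg1, a fatty acyl-CoA synthetase, read 14, 13.3, 12 and 12.6 in the vehicle libraries and 0.52, 0.557, 0.304 and 0.243 in the glutamate libraries. All 4 glutamate libraries of Acsbg1 lay below 1 FPKM, and because it passed the filter through the vehicle libraries alone no test is given for it. Hrh4, the histamine H4 receptor of mast cells, read 36.6, 35.8, 35.1 and 34.3 in the vehicle libraries and 5.1, 4.85, 4.99 and 5.32 in the glutamate libraries (log2 change -2.59 ± 0.05 (SE), adjusted p = 9.3e-13). Fbxo9, a ubiquitin ligase subunit, fell from 17.2 ± 0.525 to 1.62 ± 0.106 FPKM and the lysophospholipase Pnpla7 from 14.1 ± 1.06 to 1.26 ± 0.159 FPKM. The splicing regulators Rbm5 and Hnrnpm fell, with log2 changes of -2.58 ± 0.07 (SE), adjusted p = 1.2e-11, and -2.54 ± 0.07 (SE), adjusted p = 1.0e-11. Mns1, a structural protein of cilia and flagella, and the nuclear receptor coactivator Ncoa5 were also lower. So were the tetraspanin Tspan32, the adhesion molecule Icam2 and the inositol phosphatase Inpp5k. With Tbxas1, these genes completed the 12 furthest falls among annotated genes. Over the 12, log2 changes ran from -3.32 (Acsbg1) to -2.27 (Inpp5k). These 12 were chosen for lack of overlap between the groups, and Ncoa5, like Acsbg1, passed the filter through the vehicle libraries alone.

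Energy metabolism genes went both ways. Of 17 glycolysis genes 4 rose and 3 fell (10 and 3 centred, 5 and 8 quantile, 2 under 1 FPKM throughout 1 group), those that fell being Eno1 (enolase), Pfkl and Pfkm (phosphofructokinase subunits). Eno1 read 206, 202, 199 and 190.5 in the vehicle libraries and 77, 81, 80.7 and 78.7 in the glutamate libraries (log2 change -1.32 ± 0.03 (SE), adjusted p = 6.7e-12). Pfkl went from 3.85 ± 0.177 to 0.92 ± 0.181 FPKM, and it needed the vehicle libraries to pass the filter, so no test is given for it. Pfkm read 3.09, 2.9, 2.83 and 3.12 in the vehicle libraries and 0.787, 0.763, 0.738 and 0.815 in the glutamate libraries, and because it passed the filter through the vehicle libraries alone no test is given for it. Of 28 oxidative phosphorylation genes 11 rose and 0 fell, although centring alone called 22 higher and 0 lower and quantile normalization 14 higher and 9 lower. Atp5b, the ATP synthase β subunit, rose from 198 ± 3.07 to 302 ± 1.71 FPKM (log2 change 0.61 ± 0.03 (SE), adjusted p = 4.9e-10). Proteasome subunits were near the median of all genes (0.09), with 3 risen and 4 fallen of 25 (14 and 4 centred, 6 and 14 quantile), among those that fell Psma1, from 83.9 ± 3.32 to 45.9 ± 1.41 FPKM. Interferon-stimulated genes gave 2 risen and 8 fallen of 18 (5 and 8 centred, 4 and 10 quantile, 3 under 1 FPKM throughout 1 group). The immunoproteasome subunit Psmb9 fell (log2 change -1.57 ± 0.05 (SE), adjusted p = 1.9e-11), while B2m, the light chain of MHC class I, rose from 1819.8 ± 30.4 to 2862 ± 65.7 FPKM (log2 change 0.65 ± 0.03 (SE), adjusted p = 3.8e-10).

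Genes on the lists of other cell types went both ways. Of 6 tested macrophage genes 0 rose and 2 fell (3 and 2 centred, 2 and 3 quantile). Of 4 tested platelet genes 1 rose and 2 fell (1 and 2 centred, 1 and 2 quantile). Of 5 tested basophil genes 3 rose and 0 fell (4 and 0 centred, 3 and 2 quantile). Cd68, Gp1ba and Prss34 are picked members of these lists. Cd68, a lysosomal gene of macrophages, fell from 22.2 ± 1.15 to 9.5 ± 0.952 FPKM (log2 change -1.15 ± 0.07 (SE), adjusted p = 5.0e-09). Gp1ba, a platelet receptor subunit also present in these cells, fell from 25.7 ± 4.11 to 6.56 ± 0.427 FPKM (log2 change -1.81 ± 0.09 (SE), adjusted p = 2.0e-09). Prss34, a serine protease shared by basophils and mast cells, rose from 493 ± 17.6 to 778 ± 16.8 FPKM (log2 change 0.66 ± 0.03 (SE), adjusted p = 1.0e-09). The summed levels of these lists are given above by group, and their part in the results was not tested. Neat1, a nuclear noncoding RNA, rose from 2.98 ± 0.539 to 8.22 ± 0.575 FPKM (log2 change 1.22 ± 0.09 (SE), adjusted p = 6.2e-08).

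NS102, an antagonist of kainate receptors, was given for 48 h in culture with its own vehicle, so agent, dose, time and conditions all differ from the glutamate comparison and cannot be told apart. The groups share no control library. NS102 changed 5902 of 8373 tested genes (70.5%), 30.8% higher and 39.7% lower, with a median change of -0.06. The glutamate effect differed from the NS102 effect for 6750 of 8896 genes (75.9%) in limma's interaction test, more positive with glutamate in 23.3% and more negative in 52.5%, the median difference being -0.29. Against that background, the ribosomal proteins were more positive with glutamate in 31 of 31, and 31 of them were lower with NS102 against its vehicle. Histones were more positive in 13 of 14, and oxidative phosphorylation genes in 23 of 28. Cytokine receptors were more negative with glutamate in 19 of 27 and IgE signalling genes in 17 of 20. These counts, and the differences below, are as deposited, and list counts after centring are not given. With each library centred on its median, the interaction test no longer called Ms4a2 (adjusted p = 0.27) or Il1rl1 (adjusted p = 0.65). It still called Kit (adjusted p = 6.7e-10) and Inpp5d (adjusted p = 1.5e-11).

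**Figure D4:**
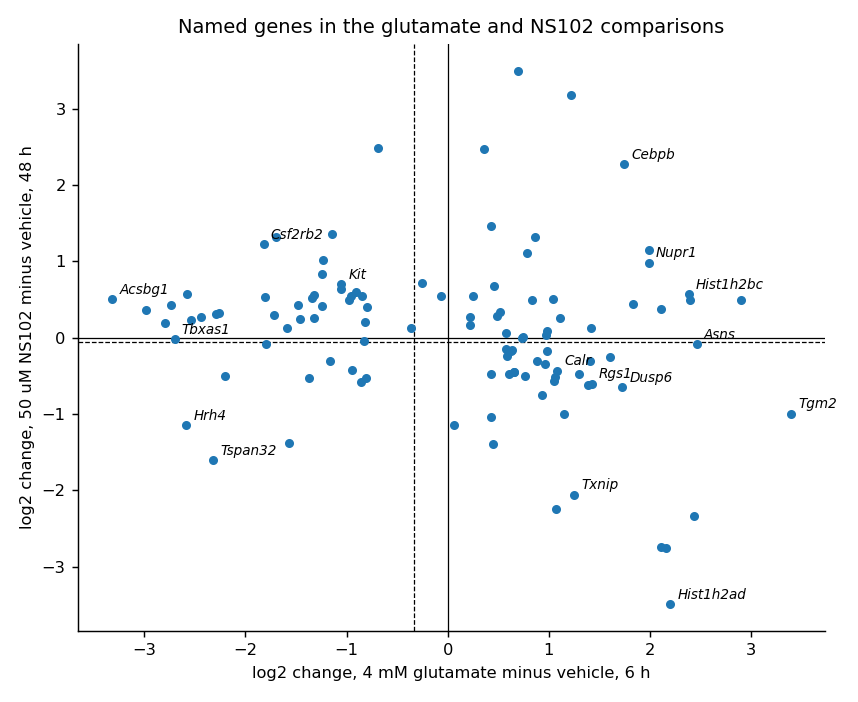
Each point is a named gene tested in both comparisons, with its log2 change with glutamate at 6 h on the x axis and with NS102 at 48 h on the y axis, and dashed lines at the median change of each comparison (-0.33 and -0.06). Tgm2, Txnip and Hist1h2ad are higher with glutamate and lower with NS102, and Kit and Csf2rb2 the reverse. Hist1h2bc is higher in both, and Tspan32 and Hrh4 are lower in both.

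Single genes showed the contrast. Asns rose by 2.46 with glutamate and stood at -0.08 with NS102, which did not pass the test (adjusted p = 0.36), and the difference was 2.55 ± 0.10 (SE), adjusted p = 1.3e-13. Tgm2 changed by -1.0 with NS102, the opposite sign (difference 4.39 ± 0.09 (SE), adjusted p = 2.9e-17). Txnip likewise changed by -2.06 (difference 3.31 ± 0.09 (SE), adjusted p = 2.5e-15). The H2A histone Hist1h2ad, which may share reads with its close copies, changed by -3.49 with NS102 (difference 5.69 ± 0.14 (SE), adjusted p = 2.6e-16). Other histones did not follow it, since the H2B gene Hist1h2bc changed by 0.57 with NS102. Of 10 listed histones tested with NS102, 3 were higher and 6 lower. Kit was higher with NS102 (0.7) and lower with glutamate (-1.05), a difference of -1.75 ± 0.11 (SE), adjusted p = 1.1e-10. Csf2rb2 changed by 1.22 with NS102 (difference -3.04 ± 0.16 (SE), adjusted p = 8.3e-12), and Inpp5d by 1.32 (difference -3.01 ± 0.16 (SE), adjusted p = 1.4e-11). Some genes moved the same way. Hrh4 was lower with NS102 too (-1.15), though less (difference -1.44 ± 0.09 (SE), adjusted p = 6.3e-11), and Slc18a2 changed by -0.52 (difference -0.85 ± 0.08 (SE), adjusted p = 3.0e-08). Psmb9 had an NS102 change of -1.37, and its difference did not pass the test (-0.2 ± 0.10 (SE), adjusted p = 0.073). Ccl3 and Ccl7 were raised far more by NS102, by 3.5 and 2.48, with differences of -2.8 ± 0.15 (SE), adjusted p = 1.0e-11, and -2.12 ± 0.08 (SE), adjusted p = 2.2e-13.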

How the data were processed

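RNA was sequenced from 40 mouse libraries, of which 16 from cultured mast cells were used here and 24 sample columns were not. The table deposited by the authors gives 1 decimal value per gene and library. Per the submitters' processing notes it was made with STAR and Cufflinks on mm9, with no versions; its header names no unit, and the values were read as FPKM computed by the authors. The annotation, strand setting, filters and any scaling between libraries are not given in the sources used here. Library depth is unknown. For genes with non-zero values under 0.1 FPKM in both libraries, each replicate was divided by replicate 1 of its group. After the best common scaling factor, only 60.5% to 67.2% of these ratios lay near a ratio of whole numbers up to 6 (tolerance 0.03 on the log2 scale). No reads were therefore recovered, and no counting error can be given. Gene symbols were taken from the identifier column because some in the symbol column had been turned into dates. The table has 23812 rows.

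Groups came from the labels. The 8297 genes that reached 1 FPKM in 4 or more of the 8 libraries were fitted with limma 3.58.1 (R 4.3.3), with an intensity trend on log2(FPKM + 1), where the pseudocount of 1 understates changes of low genes; tests were two-sided, with Benjamini-Hochberg adjustment across every tested gene. The fit was repeated after subtracting each library's median. The difference from the NS102 comparison was an interaction term over 16 libraries. Replicate numbers are shared between the groups, but same-numbered deviations correlated at only -0.05 to 0.14, so libraries were not treated as pairs. The procedure was tested on simulated data. Alternatives were other pseudocounts, filters and scalings, no trend, a shared spread, a replicate block and leaving out each library.

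Named genes are the 12 largest changes per direction relative to the median (both scalings called, at least 5 FPKM in the higher group, no overlap, predicted genes left out), 7 fixed genes, and up to 4 members per list by p from 49 lists. A further set (Trib3, Nupr1, Cebpb, Atf4, Ddit3, Slc7a5, Eif4ebp1, Ppp1r15a, Farsb, Lars, Syvn1, Sel1l, Rpl37, Dusp6, Nfkb1, Il6, Hdc, Fcer1a, Lyn, Syk, Csf2rb, Il1rl1, Lamp1, Glul, Aldh18a1 and Got1) was named for its role after the values were seen. Members and lists were chosen with earlier results of these data known. Promoter windows came from RefSeq (GRCm38.p6) and were matched by symbol.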

Additional observations from a re-analysis of the deposited data

Results flagged for a closer look

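In 14 of 228 groups of 4 values examined, 1 library stood apart from the other three by Dixon's criterion. Chance alone marks about 1 in 20 groups, so a count of this size carries little weight. Glutamate replicate 4 stood apart in Fbxo9 (1.46 FPKM, low), Slc7a5 (24.9, low), Pdia6 (70.2, low), Rps2 (983, high) and Rpl37 (243, high). Glutamate replicate 3 stood apart in Tspan32 (6.66, high) and Mrgprb2 (50.7, high), and glutamate replicate 2 in Hpgds (1.73, low). Among vehicle libraries, replicate 3 stood apart in Tspan32 (34.5, high), Inpp5k (42.1, low) and Lars (2.81, low), replicate 1 in Sars (15.2, high) and Lamp1 (68.3, low), and replicate 2 in Dusp6 (1.14, high). Apart from Rpl37, which was not called, each of these genes kept its direction and its call when any 1 library was left out.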

How the results depend on the processing

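Of the 113 named genes that were tested, 102 could be tested in all 18 settings, and 95 of these kept their direction and their call throughout. The filter of 5 FPKM left 11 untested (Cebpb, Dusp6, Farsb, Grin2c, Lars, Per1, Pfkl, Pfkm, Slc1a4, Syk and Trib3), of which 10, all but Grin2c, kept both in the other settings. The scaling between libraries moved the split most: as deposited, 1403 genes were higher and 5177 lower, against 3703 and 2611 after median centring, 3112 and 3101 after quantile normalization, and 3126 and 3116 after centring on the median gene-wise change, which was chosen after seeing the data. Ddit3 reversed to 0.35 under median centring and 0.26 under centring on the gene-wise change, Il1rl1 to 0.049 under median centring, and Grin2c to 0.15, 0.15 and 0.067 under median centring, quantile normalization and gene-wise centring. Cma1 reversed to -0.26 under quantile normalization, which also set Cpa3, Tpsb2 and Srgn to 0 because their ranks are the same in every library.

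A filter of 5 FPKM, which tests fewer genes, left 3962 calls as deposited (2942 lower) and 3942 centred (2101 higher), and 4188 for the difference from NS102. With no filter, the centred fit called 12321 genes, 8905 of them higher. With a replicate block, 6629 genes were called, 1428 higher and 5201 lower, and 6344 after centring; this block changed no call or direction of a named gene. Leaving out each library in turn gave 6412 to 6527 calls as deposited, 1330 to 1446 higher and 5032 to 5155 lower, and 6066 to 6218 centred. Same-numbered libraries deviated together at -0.05 to 0.14, and 4 of 8 libraries correlated best with their own number, so the numbers do not show a pairing. Without read counts, the precision of genes near 1 FPKM is not known.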
